A study of Mus musculus with 6 samples.

Results

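Genes through which hepatocytes take up, phosphorylate and store glucose and fructose were examined, together with the glucose-responsive factor ChREBP and a target of it. They were chosen by symbol as a named set of 8 genes: Slc2a2, Gckr, Khk, Pfkl, Pklr, Gys2, Mlxipl and Txnip. All 8 were found among the 22599 gene symbols of the deposited tables, and all 8 passed the filter on low counts that left 13205 genes for testing. The data are 6 bulk RNA sequencing libraries of mouse liver, 3 from NcoR1fl/fl mice (genotype label WT, called flox here) and 3 from NcoR1ΔHep mice (genotype label knockdown NcoR1). The series title speaks of hepatic deletion and its design text of knockdown. Both groups carry 0 h in their sample titles and liver ischemia-reperfusion as their treatment label. Housing was the same for both, at 25 °C with a 12 h light phase and free access to chow. No source used here gives the driver that removes the allele, the age, sex or feeding state of the mice, or the hour of collection. Nor do the labels tie each library to its own animal. The p-values below cover only the spread among the 6 libraries, part of which may be technical.

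In the liver, glucose enters the hepatocyte through GLUT2 and is phosphorylated before it can be used or stored, while fructose is phosphorylated by ketohexokinase and bypasses the phosphofructokinase step of glycolysis. ChREBP is a transcription factor that responds to sugar phosphates and, with its partner MLX, binds carbohydrate response elements (ChoREs), which are paired E-box-like motifs set a few bases apart. NcoR1 is a corepressor recruited by nuclear receptors. The comparison asked how these genes stood at 0 h in the libraries labelled NcoR1ΔHep and in those labelled flox.

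The libraries held 36975231 to 38470468 counts each. Ncor1 itself, the check of the genotype labels, was at 6.78, 6.70 and 7.72 FPKM in flox 1 to 3 and at 5.34, 6.63 and 4.93 FPKM in NcoR1ΔHep 1 to 3 (log2 fold change -0.31, SE 0.21, edgeR adjusted p = 0.931), so gene totals left the genotype resting on the labels. FPKM is the count scaled to gene length and to the total of the library, and CPM is the count scaled to the total alone. NcoR1ΔHep 1 stood apart: it had 17138 counts of Xist, against 6 to 18 in the other libraries, and 0 of the Y-linked Uty, against 454 to 1020. These are the counts of a female sample, and those of the other libraries are the counts of male samples. Sex was therefore not balanced between the groups. Flox 1 and flox 2 stood apart in the clock gene Dbp, at 0.948 and 3.76 FPKM, where the other 4 libraries ranged from 37.6 to 92.6 FPKM. The 7 hepatocyte markers found (Alb and others) summed to 91325 to 109800 CPM in flox and 98160 to 100894 in NcoR1ΔHep. All 8 endothelial markers had a negative log2 fold change, with sums of 385, 134 and 184 CPM in flox 1 to 3 and 206, 126 and 88.0 CPM in NcoR1ΔHep 1 to 3, so that flox 1 alone lay above 206. Of 8 Kupffer cell and macrophage markers, 7 had a negative log2 fold change (median -0.39, no edgeR call), with sums of 283 to 448 CPM in flox and 171 to 436 CPM in NcoR1ΔHep, lowest in NcoR1ΔHep 3. The part of these cells in the levels of the 8 genes was not tested. Of 8 stellate cell markers, 7 had a positive log2 fold change (median 0.09, no edgeR call), with sums of 295 to 431 CPM in flox and 362 to 465 CPM in NcoR1ΔHep. Over all 13205 tested genes, 7069 had a positive log2 fold change and 6136 a negative one. Sums of lymphocyte and of neutrophil markers did not exceed 12.7 CPM in any of the 6 libraries. Cholangiocyte markers summed to 171 in NcoR1ΔHep 2 and to 37.7 to 61.6 elsewhere. Islet and exocrine pancreas markers were looked at because beta cells also use GLUT2, but only 3 of the 9 listed were found. These 3 summed to 0.290 to 1.72 CPM. They include the exocrine genes Cela2a, the only 1 tested, and Ctrb1, which had no count, so the sums say little about islet cells. In bulk tissue, fewer cells of a type and less RNA per cell cannot be told apart.

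Because ChREBP is known to act through ChoREs, the windows around transcription starts in RefSeq (build GRCm38.p6, 250 bases before to 50 after the start) were searched for 3 motifs on both strands. The motifs were the E-box CACGTG, an inverted ChoRE pattern CACNNGNNNNNCNNGTG, and a direct-repeat pattern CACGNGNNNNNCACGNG, the last written with the Txnip window in view. A stretch with CACGTG on both sides of the spacer matches all 3. Windows were held for 7 of the 8 genes (9 windows, with 2 each for Pklr and Mlxipl), and none for Gys2. The 4 stretches that held a match are shown 5′ to 3′ with the matching bases in capitals and 20 bases on each side.
Pklr, inverted pattern, chr3:89136433-89136489, plus strand: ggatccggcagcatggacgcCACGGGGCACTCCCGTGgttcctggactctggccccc
Txnip, direct repeat, chr3:96557852-96557908, plus strand: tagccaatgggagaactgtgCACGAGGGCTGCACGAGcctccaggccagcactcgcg
Khk, E-box, chr5:30921468-30921513, plus strand: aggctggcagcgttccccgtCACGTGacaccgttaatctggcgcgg
Mlxipl, E-box, chr5:135089772-135089817, plus strand: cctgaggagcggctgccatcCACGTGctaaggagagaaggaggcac

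The Pklr match lies 170 to 154 bases before the downstream of its starts, and the Txnip match 85 to 69 bases before its start. The E-boxes lie 71 to 66 bases before the Khk start and 98 to 93 bases before the upstream start of Mlxipl. Of 32851 windows of this length, 7.15% held the E-box, 0.496% the inverted pattern and 0.0487% (16 windows) the direct repeat. A match describes these letters only, and the deposited data hold no binding measurement. Counts are per gene, so the starts of Pklr and Mlxipl, and the ChREBP-alpha and ChREBP-beta transcripts, cannot be told apart.

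None of the 8 genes differed between the groups by edgeR's quasi-likelihood test with adjustment over all 13205 genes. Among all tested genes 0% passed that threshold, and 3.35% had an unadjusted p under 0.05. Of the 8, 0 had an unadjusted p under 0.05, and DESeq2 and limma called 0, where DESeq2 called 0.0246% of the genes it tested. The flox and NcoR1ΔHep ranges overlapped in all 8, where they did not overlap in 7.56% of all tested genes by FPKM and in 8.82% by TMM-scaled CPM. Log2 fold changes of NcoR1ΔHep over flox were positive for 7 genes and negative for Pfkl, where 7069 of the 13205 tested genes had a positive one. The median of the 8 was 0.18 (quartiles 0.13 and 0.26), beside 0.03 (quartiles -0.21 and 0.27) over all tested genes. The spread lay between libraries: Mlxipl differed 7.45 times between its highest and lowest library and Txnip 4.59 times, while Khk differed 1.42 times and Slc2a2 1.57 times.

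**Figure D1:**
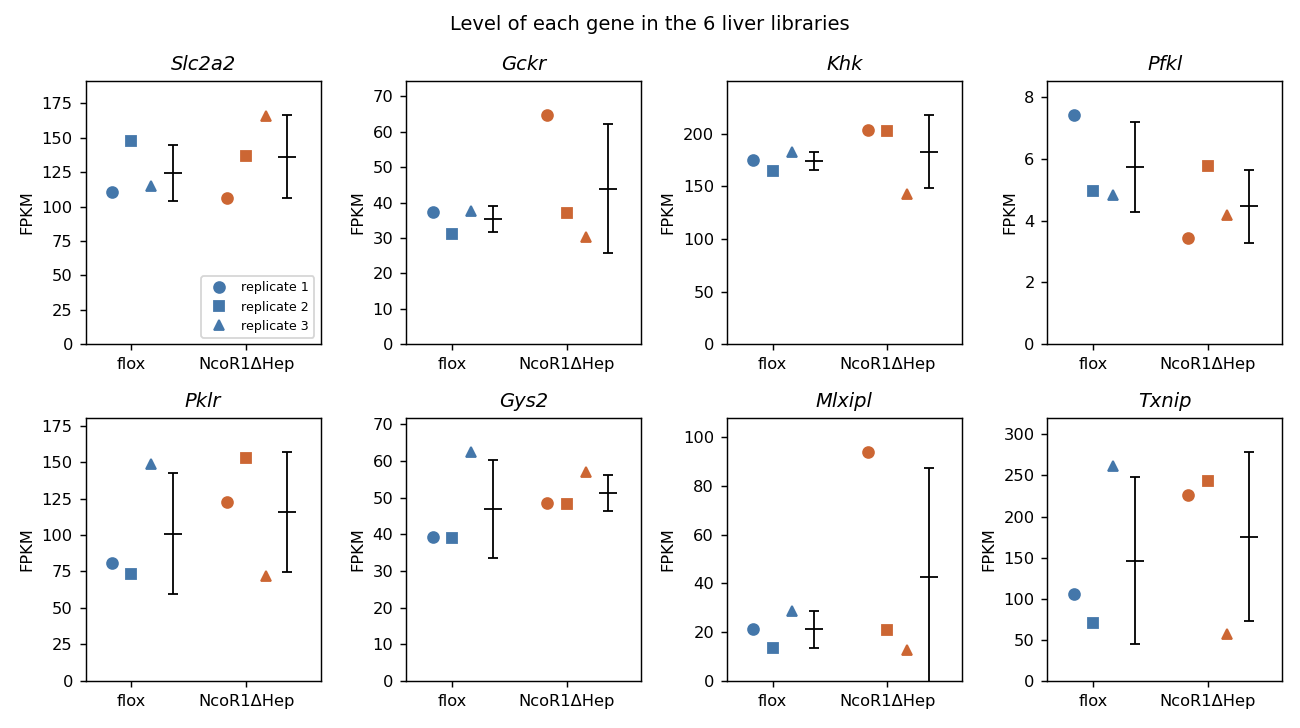
Level of the 8 genes in FPKM (linear axes from 0) in each library, with flox in blue and NcoR1ΔHep in orange and the symbol giving the replicate number. Black bars are mean ± SD of 3 libraries, the lower bar of Mlxipl in NcoR1ΔHep being cut at 0. NcoR1ΔHep 1 stands alone in Mlxipl at 93.9 FPKM, and Pklr and Txnip are high in flox 3, NcoR1ΔHep 1 and NcoR1ΔHep 2.

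By mean level in flox, the genes ran from Khk (174 ± 8.68 FPKM, SD, n = 3) through Txnip (146 ± 101), Slc2a2 (125 ± 20.3) and Pklr (101 ± 41.7) to Gys2 (46.9 ± 13.5), Gckr (35.4 ± 3.55), Mlxipl (21.1 ± 7.68) and Pfkl (5.73 ± 1.45). Txnip, Slc2a2 and Pklr could not be ordered, since the ranges of neighbours overlapped, as they did for Khk and Txnip. Gys2 lay above Gckr in each of the 6 libraries except NcoR1ΔHep 1, and Pfkl was the lowest of the 8 in all 6.

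Slc2a2 encodes GLUT2, the high-capacity glucose and fructose transporter of the hepatocyte membrane. It was at 111, 148 and 115 FPKM in flox 1, 2 and 3 and at 106, 137 and 166 FPKM in NcoR1ΔHep 1, 2 and 3. Both the lowest and the highest library were NcoR1ΔHep, and every flox value fell between them. A log2 fold change of 0.16 (SE 0.30, 95% interval -0.53 to 0.85, edgeR adjusted p = 0.955) became -0.10 without NcoR1ΔHep 3.

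Gckr encodes a regulatory protein that restrains the phosphorylation of glucose in hepatocytes when glucose is low. Its level was 37.3, 31.2 and 37.5 FPKM in the flox libraries and 64.6, 37.0 and 30.2 FPKM in the NcoR1ΔHep libraries. NcoR1ΔHep 1 was 1.72 times the next highest library, and the other 5 lay within 30.2 to 37.5 FPKM. The log2 fold change of 0.31 (SE 0.27, 95% interval -0.30 to 0.92, edgeR adjusted p = 0.931) was 0.02 without NcoR1ΔHep 1.

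Khk encodes ketohexokinase, the first enzyme of fructose breakdown. It was at 174, 165 and 182 FPKM in flox and at 203, 202 and 143 FPKM in NcoR1ΔHep. It was the steadiest of the 8, and by FPKM the NcoR1ΔHep libraries enclosed the flox range from both sides. By TMM-scaled CPM, the scaling behind the edgeR fold change, they did not: flox 1 (272) lay just below NcoR1ΔHep 3 (275). Its log2 fold change was 0.08 (SE 0.21, 95% interval -0.41 to 0.56, edgeR adjusted p = 0.975). Tkfc, the triokinase that acts later in the same route, was at 88.4, 82.9 and 142 FPKM in flox and 132, 149 and 90.9 FPKM in NcoR1ΔHep, high in the same 3 libraries in which Khk was highest (log2 fold change 0.25, SE 0.29). Glyctk, glycerate kinase, was at 32.2 to 38.9 FPKM in flox and 26.4 to 31.1 FPKM in NcoR1ΔHep, with no overlap and no call (log2 fold change -0.27, SE 0.18, edgeR adjusted p = 0.931).

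Pfkl encodes the liver subunit of phosphofructokinase, which commits fructose 6-phosphate to glycolysis. Its level was low, at 7.40, 4.97 and 4.82 FPKM in flox and 3.43, 5.75 and 4.19 FPKM in NcoR1ΔHep, from 524 to 1146 counts a library. Flox 1 was the highest and NcoR1ΔHep 1 the lowest, while NcoR1ΔHep 2 lay above flox 2 and flox 3. Across the groups the log2 fold change was -0.32 (SE 0.26, 95% interval -0.92 to 0.28, edgeR adjusted p = 0.931), or -0.11 without NcoR1ΔHep 1 and -0.52 without NcoR1ΔHep 2.

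Pklr encodes the liver and red-cell form of pyruvate kinase, which ends glycolysis and is a classical ChREBP target. It was at 80.8, 73.2 and 149 FPKM in flox and at 123, 153 and 71.8 FPKM in NcoR1ΔHep. Flox 3 was 2.03 times flox 2 and NcoR1ΔHep 2 was 2.13 times NcoR1ΔHep 3, so high and low libraries occurred in both groups. Between the groups the log2 fold change was 0.19 (SE 0.36, 95% interval -0.64 to 1.02, edgeR adjusted p = 0.955). Without NcoR1ΔHep 2 it was -0.056 and without flox 3 it was 0.60. Erythroid markers, which bear on the red-cell form, summed to 263 to 362 CPM in flox and 177 to 255 in NcoR1ΔHep. Of the 5 tested, 3 had a negative and 2 a positive log2 fold change. Their part in the level of Pklr was not tested.

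Gys2 encodes liver glycogen synthase. It was at 39.3, 38.9 and 62.4 FPKM in flox and at 48.4, 48.2 and 56.8 FPKM in NcoR1ΔHep. All NcoR1ΔHep libraries lay above flox 1 and flox 2 and below flox 3. For Gys2 the log2 fold change was 0.15 (SE 0.28, 95% interval -0.48 to 0.79, edgeR adjusted p = 0.955), or 0.43 without flox 3 and -0.020 without NcoR1ΔHep 3.

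Mlxipl encodes ChREBP. Its level was 21.2, 13.4 and 28.8 FPKM in flox and 93.9, 20.8 and 12.6 FPKM in NcoR1ΔHep. NcoR1ΔHep 1, the only library with the Xist and Uty counts of a female sample, was 3.26 times the next highest. Its 19064 counts compare with 2550 to 5764 in the others. The part of sex in this level, or in that of any other gene named here, was not tested. NcoR1ΔHep 2 lay within the flox range and NcoR1ΔHep 3 just below it. The mean was 2.01 times that of flox, with a log2 fold change of 0.96 (SE 0.65, 95% interval -0.53 to 2.46, edgeR adjusted p = 0.931) that was -0.26 (SE 0.33) without NcoR1ΔHep 1. Limma on log2(FPKM + 1) with all 6 libraries gave 0.52. NcoR1ΔHep 1 exceeded 3 times the next highest library in 157 of the tested genes (1.19%), Mlxipl among them, a criterion set after its values were seen.

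Txnip encodes thioredoxin-interacting protein, an arrestin-family protein that limits glucose uptake and is induced by glucose through ChREBP and its relative MondoA. It was at 106, 70.7 and 261 FPKM in flox and 226, 243 and 57.0 FPKM in NcoR1ΔHep. The same 3 libraries were highest as for Pklr and Khk, namely flox 3, NcoR1ΔHep 1 and NcoR1ΔHep 2, and these cross the genotypes. Its log2 fold change was 0.24 (SE 0.60, 95% interval -1.13 to 1.61, edgeR adjusted p = 0.973), turning to -0.091 without NcoR1ΔHep 2, to -0.080 without flox 2, and reaching 0.999 without flox 3. The order of the Txnip values was not that of Mlxipl: NcoR1ΔHep 1 had 4.52 times as much Mlxipl as NcoR1ΔHep 2 and slightly less Txnip.

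**Figure D2:**
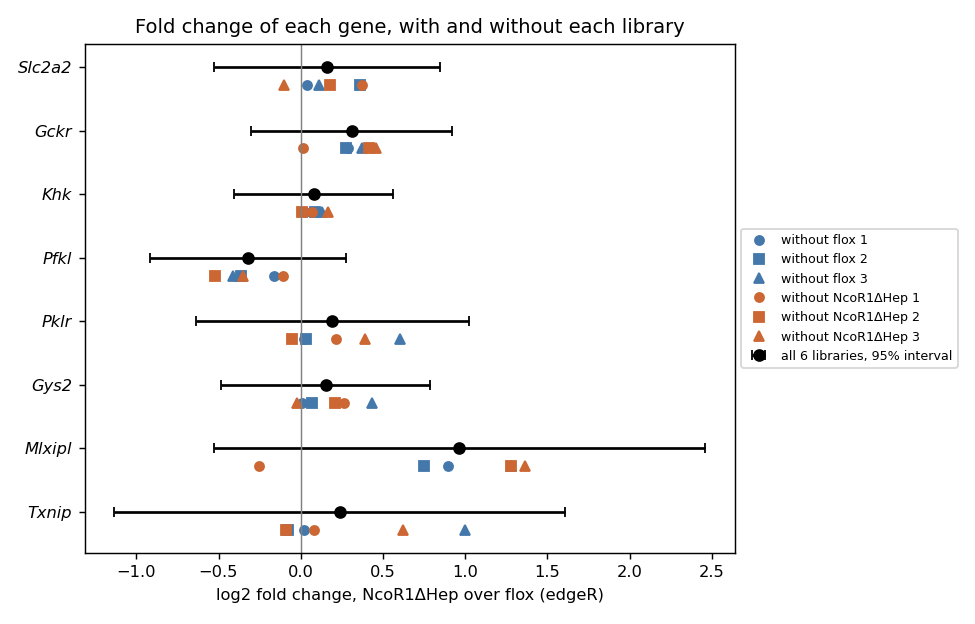
Log2 fold change of NcoR1ΔHep over flox from edgeR for the 8 genes. Black points and bars are the fit of all 6 libraries with its 95% interval, and coloured symbols are fits without the library named. All 8 intervals include 0, and the Mlxipl value falls from 0.96 to -0.26 when NcoR1ΔHep 1 is left out.

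Compared by exact permutation, two-sided, the FPKM values gave p = 0.4 to 1 over the 8 genes, where 3 libraries against 3 cannot go below 0.1. Adjusted over 13 such tests, which include the 5 family shares described next, the p-values were 0.975 to 1.

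The share of each gene within its gene family was computed from FPKM, which allows levels of genes of different length to be added. Pklr held 96.4%, 98.1% and 98.8% of pyruvate kinase FPKM in flox and 98.6%, 98.7% and 98.8% in NcoR1ΔHep, the rest being Pkm, the form of most other tissues, at 0.889 to 3.04 FPKM. Gys2 held 99.1% to 99.7% of glycogen synthase FPKM in all 6 libraries, with the muscle form Gys1 at 0.167 to 0.457 FPKM. Mlxipl held 96.9% to 97.9% of the summed FPKM of Mlxipl and Mlxip (MondoA) in flox and 97.8% to 99.0% in NcoR1ΔHep. Its share differed by 1.06 percentage points (exact permutation p = 0.2, adjusted p = 0.975), with overlap.

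Slc2a2 held 88.4%, 91.2% and 86.4% of the FPKM of 9 SLC2A transporters in flox and 86.1%, 88.5% and 90.9% in NcoR1ΔHep. Next came Slc2a9, a urate transporter, at 6.86 to 9.60 FPKM, Slc2a8 at 3.50 to 5.23 and Slc2a1 (GLUT1) at 2.04 to 3.23. Slc2a5, the fructose transporter GLUT5, was at 0.414 to 1.49 FPKM. Slc2a3 (log2 fold change -0.71, SE 0.51), Slc2a4, Slc2a10 and Slc2a12 did not exceed 0.718 FPKM in any library.

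Pfkl was the exception among the 5. It held 64.8%, 63.3% and 48.8% of phosphofructokinase FPKM in flox and 66.8%, 50.3% and 64.2% in NcoR1ΔHep. The muscle subunit gene Pfkm was at 3.66, 2.69 and 4.68 FPKM in flox and 1.45, 5.42 and 2.24 FPKM in NcoR1ΔHep, so that in flox 3 and NcoR1ΔHep 2 it nearly equalled Pfkl. The platelet form Pfkp did not exceed 0.371 FPKM. Markers of skeletal muscle and fat summed to 0.0268 to 0.487 CPM, near 0, and none passed the count filter. The Pfkl share differed by 1.45 percentage points between the groups (exact permutation p = 0.6, adjusted p = 0.975), against an SD of 8.80 in flox and 8.85 in NcoR1ΔHep.

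**Figure D3:**
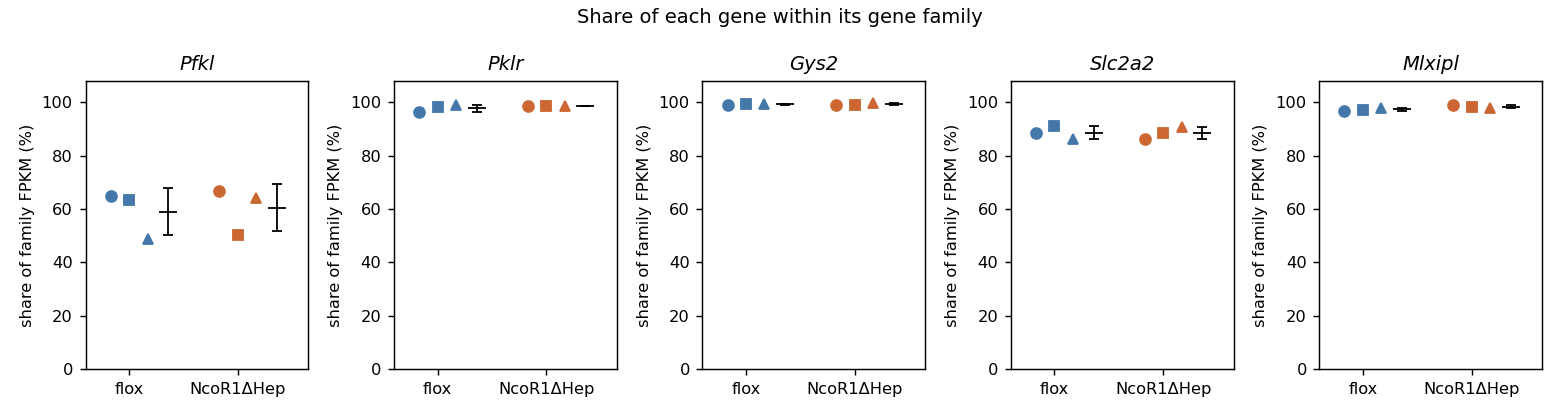
Share in percent of the summed FPKM of its gene family held by Pfkl, Pklr, Gys2, Slc2a2 and Mlxipl in each library (flox blue, NcoR1ΔHep orange, symbols by replicate as circle, square and triangle for 1, 2 and 3, black bars mean ± SD of 3 libraries). Pklr, Gys2 and Mlxipl stay above 96% in every library, while Pfkl ranges from 48.8% to 66.8%.

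Among other genes of these routes, 90 of 93 listed were tested and 0 passed the edgeR or DESeq2 threshold. One had an unadjusted edgeR p under 0.05, where 3.35% of all tested genes did. It was Tm6sf2, a lipid-export gene of the ChREBP target list, at 9.32, 7.87 and 9.43 FPKM in flox and 25.4, 10.7 and 11.4 FPKM in NcoR1ΔHep (log2 fold change 0.83, SE 0.31, edgeR adjusted p = 0.931). In NcoR1ΔHep 1, the library with the counts of a female sample, Tm6sf2 was 2.23 times the next highest library. Groups did not overlap in 8 of the 90, with 1 higher and 7 lower in NcoR1ΔHep, where 2.61% and 4.95% of all tested genes were higher or lower without overlap. Of the 90, 49 had a positive log2 fold change, where 7069 of 13205 tested genes did, and the median of the 90 was 0.065.

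Of 11 genes of glucose entry, 0 passed and 6 had a positive log2 fold change. Hk1, a hexokinase of most tissues, had the smallest p at 0.308 to 0.810 FPKM in flox and 0.169 to 0.392 in NcoR1ΔHep (log2 fold change -0.79, SE 0.43). Slc37a4, which carries glucose 6-phosphate into the endoplasmic reticulum, was at 31.3, 33.0 and 64.7 FPKM in flox and 58.5, 57.7 and 33.6 FPKM in NcoR1ΔHep, and was picked after its values were seen.

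Of 20 glycolysis genes, 0 passed and 12 had a negative log2 fold change (median -0.10). Bpgm, which makes 2,3-bisphosphoglycerate, was at 7.09 to 8.05 FPKM in flox and 5.50 to 6.10 in NcoR1ΔHep (log2 fold change -0.39, SE 0.19). The part of red cells in the level of Bpgm was not tested. Pgk1, phosphoglycerate kinase, was at 185, 139 and 124 FPKM in flox and 57.1, 144 and 98.1 in NcoR1ΔHep (log2 fold change -0.54, SE 0.35). In Pgk1 as in Pfkl, NcoR1ΔHep 1 was the lowest library and flox 1 the highest.

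Of 22 glycogen genes, 0 passed and 13 had a negative log2 fold change (median -0.10). Ppp1r3c, a glycogen-targeting subunit of protein phosphatase 1, was at 17.8, 20.1 and 5.15 FPKM in flox and 4.08, 1.85 and 11.7 in NcoR1ΔHep (log2 fold change -1.20, SE 0.73). Its 3 lowest libraries were flox 3, NcoR1ΔHep 1 and NcoR1ΔHep 2, which were the highest for Txnip. Phkg2, a catalytic subunit of phosphorylase kinase, was at 2.08 to 3.05 FPKM in flox and 2.19 to 4.91 in NcoR1ΔHep (log2 fold change 0.49, SE 0.30).

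Of 7 pentose phosphate genes, 0 passed and 6 had a positive log2 fold change, led by Pgls (0.26, SE 0.30) and Rpia (0.41, SE 0.50). Of 20 listed ChREBP targets, 0 passed and 15 had a positive log2 fold change (median 0.21), where 7069 of 13205 tested genes did. Tkt and Taldo1 stand in both lists. The mean log2(CPM + 1) of the targets, less its mean over the libraries, was -0.25, -0.40 and 0.24 in flox 1 to 3. It was 0.43, 0.25 and -0.27 in NcoR1ΔHep 1 to 3, so high and low libraries occurred in both groups. Pnpla3, a lipid droplet protein, was at 0.510, 0.135 and 1.53 FPKM in flox and 10.1, 1.60 and 0.203 in NcoR1ΔHep, set apart by the same library as Mlxipl (log2 fold change 2.38, SE 1.23). Among 9 partners of ChREBP and relatives of Txnip, 0 passed. Arrdc2, an arrestin-family gene, was at 11.8 FPKM in NcoR1ΔHep 1 and 1.12 to 2.24 FPKM elsewhere (log2 fold change 1.31, SE 0.78). Arrdc3 was at 48.7 to 88.1 FPKM in flox and 36.1 to 52.0 in NcoR1ΔHep (log2 fold change -0.64, SE 0.30). For Mlx, the partner of ChREBP, the log2 fold change was 0.23 (SE 0.21), and for Arrdc4, the relative of Txnip that is also a ChREBP target, it was 0.17 (SE 0.33), both named after their values were seen.

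Of 12 fasting-response genes, 0 passed and 6 had a positive log2 fold change, with Tat at 205 to 291 FPKM in flox and 326 to 436 in NcoR1ΔHep (log2 fold change 0.74, SE 0.27) and G6pc, glucose 6-phosphatase, at 201 to 347 and 137 to 272 FPKM (-0.42, SE 0.32). Of 13 clock genes, 11 had a positive log2 fold change (median 0.66). Arntl passed with DESeq2 (adjusted p = 0.0317) and not with edgeR (adjusted p = 0.931), with a log2 fold change of -3.23 and overlap between the groups. Per3, a period gene of the clock, was at 0.135, 0.267 and 2.14 FPKM in flox and 7.14, 1.73 and 1.49 FPKM in NcoR1ΔHep (log2 fold change 1.96, SE 1.01, edgeR adjusted p = 0.931). The part of feeding state and of the clock in the levels of the 8 genes was not tested.

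**Figure D4:**
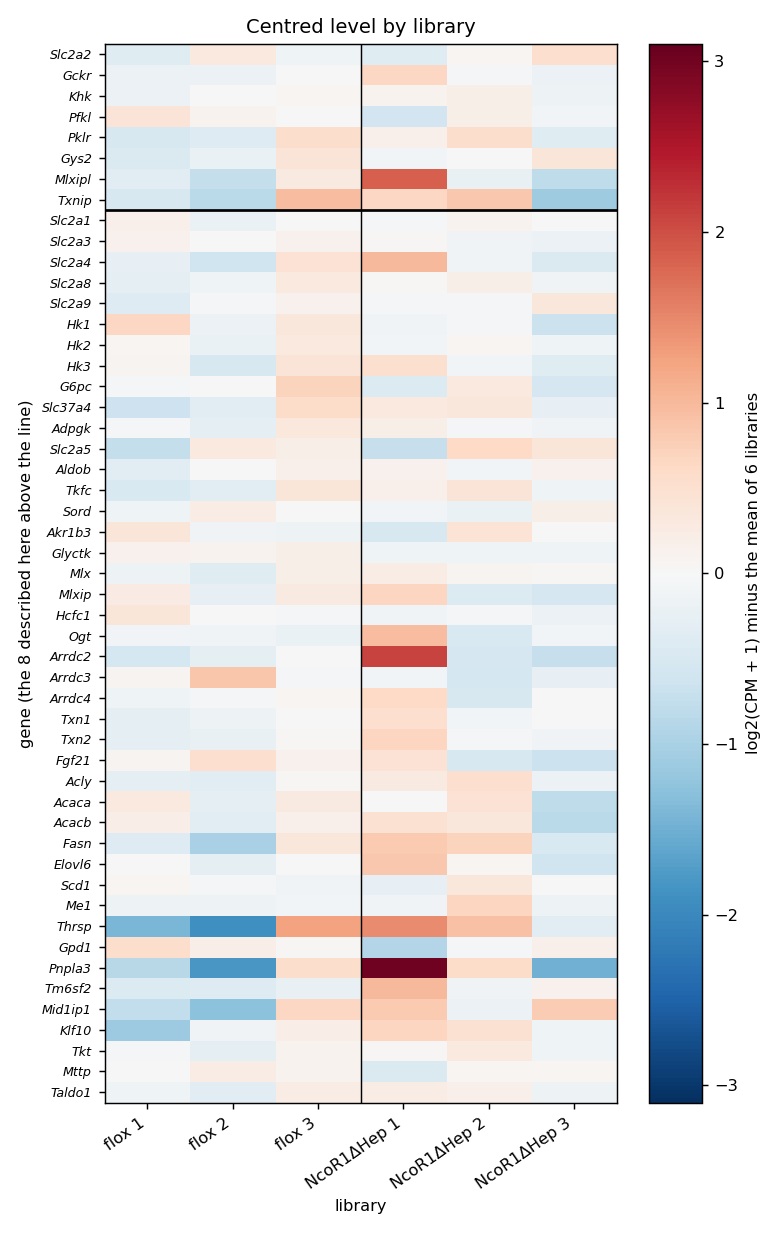
Level of each gene in each library as log2(CPM + 1), scaled by TMM, minus its mean over the 6 libraries, with red above and blue below the mean. The 8 genes stand above the horizontal line, and genes of glucose entry, fructose use, ChREBP partners and ChREBP targets below it. Mlxipl, Arrdc2 and Pnpla3 are deepest red in NcoR1ΔHep 1.

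Profiles most like each gene were found as the smallest root-mean-square difference of centred log2(CPM + 1) over the 6 libraries. The added 1 shrinks differences in genes with low counts. Dyrk3, at 12 to 43 counts a library, differed 3.65 times between highest and lowest library in FPKM, against 1.60 times for Gys2. Oas2, at 20 to 391 counts, differed 19.5 times, against 7.45 times for Mlxipl. For Mlxipl the nearest were Tagap1 (0.07 on that scale) and Oas2 (0.14), each highest in NcoR1ΔHep 1, at 6.31 and 2.56 FPKM, with no other library above 1.81 FPKM. For Txnip the nearest was Alas1, the first enzyme of heme synthesis (0.12), at 61.0, 46.5 and 195 FPKM in flox and 139, 171 and 38.2 in NcoR1ΔHep, followed by Gm32872 (0.17). Pja1 (0.02) and Selenof (0.05) were nearest to Slc2a2, Ppp1r11 (0.04) and Rps6kb2 (0.04) to Gckr, and Sav1 (0.03) and Lsm4 (0.03) to Khk. Fkbp9 (0.04) and Fam3c (0.05) were nearest to Pfkl, Srrm4 (0.09) and Eef2k (0.10) to Pklr, and Wdr43 (0.09) and Dyrk3 (0.09) to Gys2. These are the closest of 13205 profiles over 6 libraries that share their depth and scaling, and are given as a description.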

How the data were processed

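Per the file headers, the authors deposited whole-number read counts per gene symbol and FPKM for the same 6 libraries. Per the labels' protocols, libraries came from 1.3 µg of total RNA with a SMARTER mRNA kit. The submitters' processing notes name GRCm38, mm10 and hg38 without a role. No source used here names the aligner, the counter or whether strand was used. Counts were filtered with filterByExpr (minimum count 10, total 15) and scaled by TMM (factors 0.901 to 1.11). They were tested with edgeR 4.0.16 (R 4.3.3), quasi-likelihood, two-sided, Benjamini-Hochberg, threshold 0.05. The code was first run on simulated counts, to check the sign and median size of changes larger than those estimated for the 8 genes. That run does not show which changes in these data could be called. Standard errors come from the F statistic. Alternatives used DESeq2 1.42.0, limma 3.58.1 on log2(FPKM + 1), other scaling and filters, and each library left out. The 8 genes, the lists and the rule for named genes (all 8 and their family members, the 2 smallest p per pathway list, the 2 nearest profiles, Ncor1, Dbp, Arntl and sex-linked genes) were set with earlier results of these data known. Genes said to be picked or named after their values were seen fall outside it, and a listed gene is not reported here.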

Additional observations from a re-analysis of the deposited data

How the results depend on the processing

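The 8 genes stayed short of the adjusted threshold under every alternative run (edgeR with RLE factors, total counts only, no count filter or a replicate block, DESeq2, limma on FPKM with 2 pseudocounts or no filter, and each library left out), with adjusted p of 0.626 or above. DESeq2 called 5 genes in all, none of them among the 8, where edgeR called 0. Leaving out each library in turn gave log2 fold changes of -0.10 to 0.37 for Slc2a2, 0.02 to 0.46 for Gckr, 0.01 to 0.16 for Khk, -0.52 to -0.11 for Pfkl, -0.056 to 0.60 for Pklr, -0.020 to 0.43 for Gys2, -0.26 to 1.37 for Mlxipl and -0.091 to 0.999 for Txnip, so that 5 of the 8 changed sign without some library. The cause was not tested. The median of the 8 ranged from 0.02 to 0.40 in this way. The Pklr share of pyruvate kinase differed by 0.91 percentage points in FPKM and by 2.09 in counts, which are not scaled by length. That of Pfkl ran from -3.61 to 6.50 percentage points with libraries left out. With the replicate number as a block, 0 genes passed, 175 had an unadjusted p under 0.05 in place of 443, and the Mlxipl value was 0.55. Libraries with the same number did not deviate together (correlations of 0.02, -0.38 and -0.52), and those with different numbers gave -0.27 to 0.63. The labels do not say what the number marks. Deviations from means of 3 libraries constrain each other, so these correlations cannot decide whether the numbers pair libraries. With 3 libraries a group, the intervals above give the range of log2 fold changes compatible with the data for each gene alone. They are not adjusted over all tested genes. The smallest change that the adjusted test could call was not computed.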

Other observations

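Values around Mlxipl were looked at after its level in NcoR1ΔHep 1 was seen. Of the 10 nearest tested genes in RefSeq order (5 on each side), the ratio of NcoR1ΔHep 1 to the mean of the other 5 libraries ran from 0.887 to 2.97. The highest ratio was that of Stx1a, near the floor at 0.207 FPKM there and 0.00833 to 0.126 FPKM elsewhere, and the next was 2.13 for Abhd11. How often tested genes elsewhere reach such ratios was not computed, and a part of position was not tested. Ratios ran from 1.64 (Dnajc30, the nearest) to 2.97 on the lower-coordinate side and from 0.887 to 1.47 (Nsun5) on the other. The farthest on the lower side, Cldn3, was at 86.7 FPKM there and 39.1 to 52.1 FPKM elsewhere. Abhd11, beside Cldn3, was at 30.1 and 11.5 to 15.8 FPKM. Tbl2, the nearest on the higher side, was at 2.27 and 1.66 to 2.73 FPKM.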
